A study of Mus musculus with 4 samples.

Results

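Krt8, Krt18, Krt7 and Krt19 are the 4 simple epithelial keratins followed here, out of 32285 genes in each of 4 single-cell RNA sequencing libraries of adult mouse back-skin epidermis. They were chosen by name, with the levels of Krt8 and Krt18 in keratinocytes of the same libraries already known to differ between the groups. Their levels in keratinocytes are therefore a description, and nothing rests on how far they stand out. Mice with floxed ΔNp63 alleles and no Cre (DNp63fl/fl) are called control. Mice that also carried K14-CreT2 (DNp63fl/fl;K14-CreT2) are called ablated, which names the genotype and not a proven loss in each cell. K14-CreT2 is a tamoxifen-inducible Cre under the Krt14 promoter, and the labels place its action in basal keratinocytes. Both genotypes received 200 mg/kg tamoxifen by gavage on each of 5 days and were 2 to 17 months old, with males and females in equal parts. Cells were taken 1 day or 1 week after ablation, and each of the 4 groups is 1 library. No difference below has a replicate check, no test was possible, and every 95% interval covers counting error only. The labels do not say how many animals, which ages or which trypsin digestion (cold overnight or warm) went into which library. Libraries of 1 day came from a 3′ kit and those of 1 week from a 5′ kit, so time points were not pooled.

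Keratins are the intermediate filament proteins of epithelia, and each filament needs a type I and a type II partner. Krt8 (type II) and Krt18 (type I) form the first keratin pair of the embryo and remain the filament of single-layered epithelia such as gut and liver. Krt7 is a further type II keratin of ducts and glands, and Krt19 is a type I keratin found in ducts and, in hair follicles, in some bulge cells. Stratified epidermis builds its filaments from Krt5 with Krt14 in the basal layer and Krt1 with Krt10 above it. In normal skin Krt8 and Krt18 are known mainly from Merkel cells, the touch-sensing cells that also make Krt20.

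The matrices held 18413 to 33552 barcodes and 68191870 to 179736563 UMIs a library. Each UMI (unique molecular identifier) stands for 1 captured RNA molecule, and a level is the summed cells' UMIs of a gene per 1000000 of their gene UMIs (CPM). The lowest UMI total of a barcode was 500 in both controls, 1368 in the 1-day and 1059 in the 1-week ablated library. After filters 15626 to 23651 cells a library remained. The libraries of 1 day shared 299 barcodes, those of 1 week 661, and other pairs 9 to 18. Trp63, the gene that encodes p63, stood at 404 CPM in control and 110 CPM in ablated keratinocytes at 1 day (log2 ratio -1.87). The 1-week levels were 440 and 143 CPM (log2 ratio -1.62). These UMIs count any Trp63 isoform, and nothing here shows whether they cover the deleted part, so they check total Trp63 RNA alone. The labelled tissue was checked by its markers. Clusters named as another cell type, low-UMI clusters and clusters led by immune genes were set apart first. At 1 week the low-UMI clusters held 11332 of 19879 control and 11206 of 15626 ablated cells, with 12 and 4933 Krt8 UMIs. All 1-week keratinocyte levels, shares and class orders leave these cells out and describe a deeper minority of each library. A remaining cluster was summed as keratinocytes with at least 7 of 12 keratinocyte markers or with 2-fold higher markers of a layer, follicle or gland class. The marker count alone does not separate the types, since the 1-week T/NK-like cluster 29 and Langerhans/myeloid-like cluster 30, which serve as background cells below, had 8 and 12 of the 12. At 1 day some bulge-like, sebaceous-like, granular-like and basal-like clusters passed by the second way alone, with 2 to 4 of the 12.

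Krt8 had the largest ratio of the members at 1 day and was nearly silent in both control libraries. At 1 day, 19792 control keratinocytes held 80 Krt8 UMIs and 19422 ablated keratinocytes held 49017. Control keratinocytes had 0.761 CPM (0.603 to 0.947) and ablated ones 572 CPM (567 to 577). The ablated level was 752 times the control level (log2 ratio 9.55, interval 9.24 to 9.89). At 1 week, 7693 control keratinocytes held 59 Krt8 UMIs, or 1.07 CPM (0.818 to 1.39), and 3398 ablated keratinocytes held 13365, or 374 CPM (367 to 380). The log2 ratio at 1 week was 8.44 (8.07 to 8.84), and control and ablated intervals lie far apart at both times. It was 3.96 in clusters that both libraries share.

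Krt18, the partner of Krt8, was higher in the same libraries and at a lower count. At 1 day 98 control UMIs stood beside 4359 ablated ones. The levels were 0.932 CPM (0.757 to 1.14) and 50.9 CPM (49.4 to 52.4), with a log2 ratio of 5.77 (5.48 to 6.07). At 1 week 12 control UMIs (0.219 CPM, interval 0.113 to 0.382) stood beside 2346 ablated UMIs (65.6 CPM, interval 63.0 to 68.3). The log2 ratio was 8.23 (7.42 to 9.18), an interval that overlaps that of Krt8, and 4.94 in the shared clusters. The control level of Krt18 at 1 week rests on 12 UMIs, which sets the width of that interval.

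Krt7 and Krt19 did not share this pattern. Krt7 had 3.26 CPM (2.93 to 3.63) in control and 3.63 CPM (3.24 to 4.06) in ablated keratinocytes at 1 day, intervals that overlap. The log2 ratio was 0.15 (-0.07 to 0.38). Pooled over the shared clusters it was 0.93, while single Krt7-rich clusters among them ran from -0.54 to 0.27. Its 1-week levels were 5.12 CPM (4.54 to 5.75) and 4.03 CPM (3.39 to 4.74), again overlapping, with a log2 ratio of -0.35 (-0.65 to -0.05). That ratio was 0.041 without the cluster that holds most Krt8 UMIs, -0.025 with low-UMI and unnamed clusters added, and -1.29 in the shared clusters. Krt19 was rare. It had 15 and 16 UMIs at 1 day, with a log2 ratio of 0.39 (-0.72 to 1.51), and 13 and 91 UMIs at 1 week, with a log2 ratio of 3.43 (2.58 to 4.39). Its 1-week levels were 0.237 and 2.54 CPM, and the log2 ratio over all cells was 2.36. Few cells carried these UMIs, as given below.

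**Figure D1:**
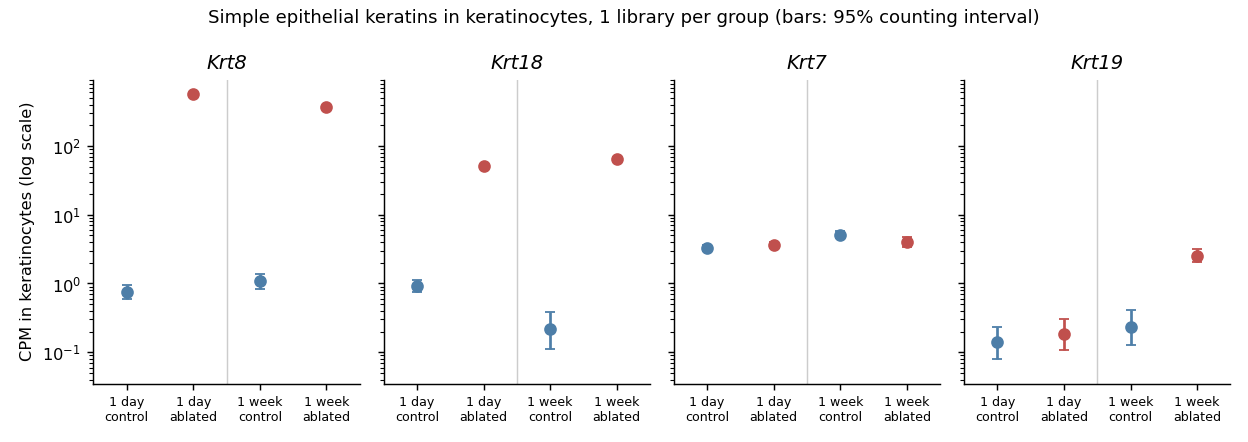
Level of each member in keratinocytes (CPM, logarithmic axis) in the 4 libraries, control in blue and ablated in red, with bars for the 95% counting interval. Krt8 goes from about 1 CPM in both controls to 572 and 374 CPM in the ablated libraries and Krt18 to 50.9 and 65.6 CPM, while Krt7 stays between 3.26 and 5.12 CPM.

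Against all genes, calls were made at 2-fold or more with at least 5 CPM in 1 of the 2 libraries. At 1 day 2 of the 4 members reached 5 CPM, Krt8 and Krt18, and both were higher, where 4.12% of 8734 genes were higher and 1.85% lower. Krt8 had the highest log2 ratio of these genes and Krt18 the 5th highest. At 1 week 3 members reached 5 CPM. Krt8 and Krt18 were higher and ranked 9th and 10th of 9883 genes, Krt7 was not called, and 7.12% of genes were higher and 3.32% lower. Since the members were chosen with this contrast known, nothing is read from these counts. The median log2 ratio of all these genes was -0.04 at 1 day and 0.07 at 1 week. It moved to -0.15 at 1 day when mitochondrial and ribosomal protein genes were left out of the totals.

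Krt8 and Krt18 are neighbours. On mouse build GRCm38 (GENCODE M21), Krt8 (ENSMUSG00000049382) lies on chromosome 15 from 101996698 to 102004482 on the minus strand. Krt18 (ENSMUSG00000023043) lies on chromosome 15 from 102028180 to 102032027 on the plus strand. The genes point away from each other and 23.7 kb separate them. Krt7 (ENSMUSG00000023039) lies on the same chromosome from 101411043 to 101430313, plus strand, 566 kb from Krt8, and Krt19 (ENSMUSG00000020911) on chromosome 11 from 100140810 to 100148665, minus strand. All are protein-coding genes. Because Krt8 and Krt18 were higher together, the bases just before their first exons are shown, from RefSeq on GRCm38.p6, 5′ to 3′ on the gene's own strand. The Krt8 window is chr15:102004483-102004592 (minus strand) and the Krt18 window is chr15:102027966-102028179 (plus strand). The promoter table held 3 of the 4 members, Krt8, Krt18 and Krt7.
Krt8: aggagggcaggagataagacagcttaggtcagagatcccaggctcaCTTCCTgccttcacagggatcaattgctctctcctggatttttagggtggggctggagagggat
Krt18: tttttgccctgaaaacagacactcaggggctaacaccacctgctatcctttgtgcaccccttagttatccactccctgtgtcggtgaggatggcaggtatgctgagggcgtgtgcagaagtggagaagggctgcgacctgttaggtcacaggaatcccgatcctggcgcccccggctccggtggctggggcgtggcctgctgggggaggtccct
The capitals mark the only match to AGGAAG, a longer form of the sites of ETS family factors, read here on the other strand as CTTCCT. It begins 64 bases before the annotated start of Krt8, and 13.0% of 27025 promoters hold this motif on either strand in a window of 110 bases. The windows of these promoters are the first bases of each upstream stretch, so they need not end at an annotated start as the printed windows do. The Krt18 window of 214 bases held no match, where 25.0% of promoters do. The shorter ETS core GGAA was not searched, and its letters do stand in the printed Krt18 window. Neither window held TGANTCA, the AP-1 letters, which read the same on both strands and occur in 2.88% and 6.09% of windows of these lengths. A match to letters is a description and not a binding site.

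To set the members beside their cell types, the paired libraries of each time point were clustered jointly, with the members and the listed genes left out of the clustering. Clusters were called "X-like" from marker lists, and clusters that passed as keratinocytes with no layer or follicle name are called keratinocytes without a class. At 1 day the Krt8 UMIs of ablated keratinocytes were concentrated in cluster 0, 5342 ablated cells led by Krt8, Krt18, Ly6c1 and Tslp. It held 67.9% of keratinocyte Krt8 UMIs and 68.8% of Krt18 UMIs, at 1633 and 147 CPM. A further 10.7% and 11.6% were in cluster 9, led by the cell-division genes Ube2c, Top2a and Mki67, at 946 CPM Krt8. Cluster 3, led by Slpi and small proline-rich genes, held 12% of Krt8 but 4.61% of Krt18 UMIs. Clusters 0 and 3 had 6 and 5 control cells, so their ablated levels have no control level beside them.

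Clusters with at least 50 cells in both libraries can be compared one by one, though pooled they still differ in makeup. Krt8 was higher in the ablated library in all 13 such keratinocyte clusters at 1 day. In 4 of them the control had 0 Krt8 UMIs. In the others the log2 ratio ran from 3.70 (2.78 to 4.77) in a bulge-like cluster to 10.44 (7.95 to 15.75) in suprabasal-like cluster 8, which rests on 1 control UMI. In 9 of the 13, cluster 8 included, the ablated cells had 0.178 to 0.418 Krt8 UMIs per cell. That is under the 0.433 of the lowest non-keratinocyte cluster, so these levels are not told apart from background. In the cycling cluster 9 it went from 14 to 5237 UMIs, or 2.08 to 946 CPM. Pooled over the shared clusters the Krt8 log2 ratio was 8.26 and that of Krt18 4.89. At 1 week 4 keratinocyte clusters were shared. Krt8 ratios were 1.90 in cluster 8 and 5.02 in bulge-like cells, and clusters 11 and 23 had 0 control UMIs against 249 and 45 ablated ones. In all 4 the ablated level per cell was under 0.533 UMIs, the highest level of a named non-keratinocyte class at 1 week. Krt18 in clusters 11 and 23, at 0.401 and 0.292 UMIs per ablated cell, lay above 0.157, the highest non-keratinocyte cluster of at least 50 cells. Below that size, 32 melanocyte-like ablated cells held 10 Krt18 UMIs. By CPM only cluster 12 lay above the highest such non-keratinocyte cluster, 56.5 CPM, and clusters 11 and 23 did not. Over the 4 shared clusters the pooled Krt8 ratio was 3.96 and the Krt18 ratio 4.94. The clusters richest in Krt8 at 1 week are not among these 4, since cluster 12 had 24 control cells and cluster 40 had 34 ablated cells.

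At 1 week cluster 12 held 82.8% of Krt8 and 73.2% of Krt18 UMIs of ablated keratinocytes. It was granular-like by markers (Hrnr and Lor were among its leading genes, with Tslp and Krt4), and counted 859 ablated and 24 control cells. Its Krt8 level was 689 CPM (677 to 702) and its Krt18 level 107 CPM (102 to 112), against 0 UMIs of both in the 24 control cells. Of its 845 ablated cells deep enough to thin, 281 held Krt8. Its Krt14 per cell was 221% of the keratinocyte level, against 1.25% in the control cells. Krt1 and Krt10 per cell stood higher still, at 356% and 367%, against 19.6% and 172% in the control cells. Its ablated cells were deep, with a median of 15106 UMIs against 7171 in all ablated keratinocytes of that time. Over all 1-week ablated keratinocytes Flg was at 218 CPM without Krt8 and at 0 UMIs in the 111 cells with 6 or more Krt8 UMIs. The name thus describes the cluster and does not place its Krt8 in granular cells. Cluster 40, basal-like and led by cell-division genes, held 9.04% of Krt8 UMIs in 34 ablated cells, or 35.5 UMIs per cell and 1911 CPM. Without cluster 12 the Krt8 log2 ratio in keratinocytes was 6.75 and that of Krt18 7.18.

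Free RNA can place keratinocyte transcripts in any droplet, so the members were read in cells that should lack them. In the 1-day control library 0 of 428 immune cells had a Krt8 UMI after each cell was thinned to 2000 UMIs, which allows a share of up to 0.701%. In the 1-day ablated library 23.4% (20.2 to 26.8) of 655 immune cells had one. T cell-like cells stood at 32.1%, Langerhans-like cells at 15.9% and fibroblast-like cells at 33.3%. Keratinocytes of that library stood at 35.5%. Krt8 in immune cells went from 0 to 931 UMIs, at least 286-fold higher against a floor of 3 UMIs. Shares in these cells are used as the background measure of the 1-day ablated library, and a keratinocyte share at or under them is not told apart from background. Median depth of the cells used was 3073 UMIs in immune cells and 3936 in keratinocytes.

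Only part of the keratinocytes stood above that background at 1 day. Keratinocytes without a class, which include clusters 0, 3 and 9, were at 46.2% (45.3 to 47.1). Basal-like (10.2%), bulge-like (11.4%), upper follicle-like (10.9%) and suprabasal-like (8.79%) keratinocytes were below the immune interval. Granular-like (20.1%, interval 17.3 to 23.2) and sebaceous-like ones (26.8%, interval 22.5 to 31.4) overlapped it. By UMIs per cell the 5 non-keratinocyte clusters of at least 50 cells ran from 0.433 to 1.89, and only clusters 0 (6.23), 9 (5.17) and 19 (2.76) of 16 keratinocyte clusters lay above. By CPM only clusters 0 and 9 lay above the highest of them, 540 CPM. Per cell, the other 13 keratinocyte clusters were no higher than the highest of these non-keratinocyte clusters. Set against keratinocytes per cell, immune cells had 37.4% of the Krt8 UMIs, beside 43.4% for Krt18, 56.7% for Krt5, 41.8% for Krt14 and 43.0% for Krt1. Bulge-like and basal-like keratinocytes had 3.28% and 5.18% for Krt1, far under the immune value. The immune shares may thus stand above what free RNA adds to a droplet, and what raised them was not tested.

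The background was lower at 1 week. No Krt8 UMI was seen in the 120 T cell-like ablated cells, and in 0 of the 56 deep enough to be thinned, which allows a share of up to 5.36%. Langerhans-like cells stood at 7.41% (2.77 to 15.4) of 81 and all immune cells at 4.38% (1.62 to 9.29) of 137. Granular-like keratinocytes stood at 33.3% (30.1 to 36.5) of 845 and basal-like ones at 51.9% (37.8 to 65.7) of 54, both above every immune value. Keratinocytes without a class (10.5%), matrix-like (9.38%), bulge-like (5.96%) and upper follicle-like cells (5.30%) were within the interval of the Langerhans-like cells. Immune cells held 5.51% of the keratinocytes' Krt8 UMIs per cell, beside 27.5% for Krt5 and 12.5% for Krt14. Schwann-like cells, at 309 CPM and 0.533 UMIs per cell, were the highest of the other named classes, and an unnamed cluster of 98 ablated cells had 0.633 per cell.

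**Figure D2:**
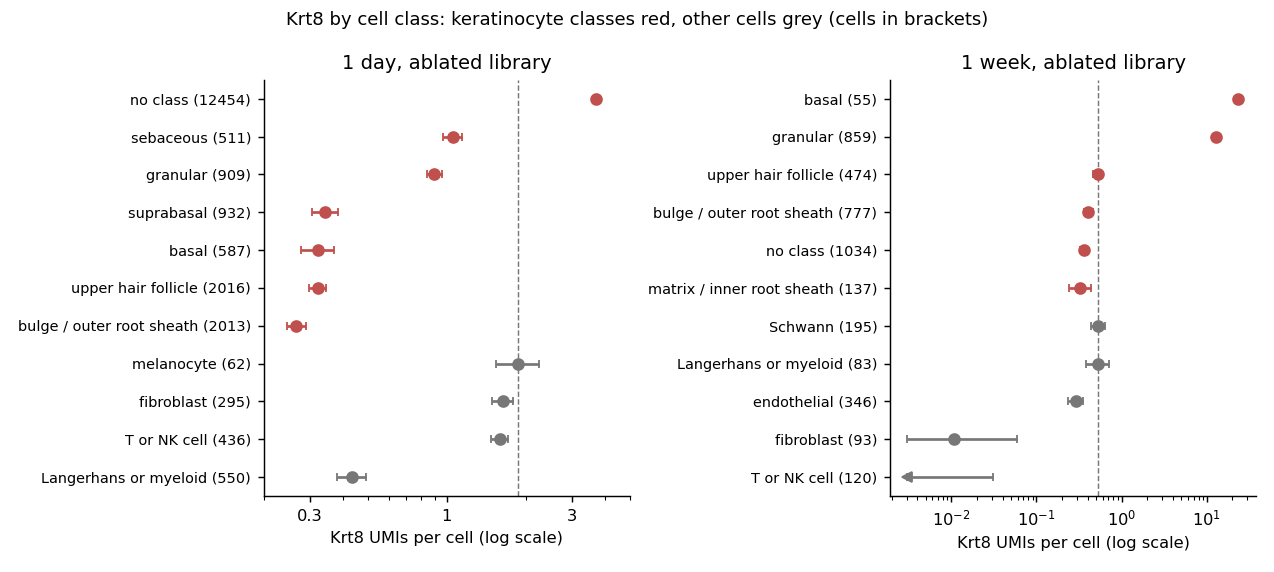
Krt8 UMIs per cell (logarithmic axis) in the ablated libraries at 1 day and 1 week, by cell class of at least 50 cells, keratinocyte classes in red and other cells in grey, with the number of cells in brackets and 95% counting intervals. The dashed line is the highest named non-keratinocyte class, 1.87 at 1 day and 0.533 at 1 week, and the arrow marks T cell-like cells with 0 UMIs.

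Ordered by Krt8 CPM, the 1-day ablated keratinocyte classes ran from cells without a class (777 CPM) through sebaceous-like (226 CPM) and granular-like (176 CPM) to basal-like (99.9 CPM). Bulge-like (93.8 CPM), upper follicle-like (90.2 CPM) and suprabasal-like cells (68.3 CPM) followed. Basal-like, bulge-like and upper follicle-like levels did not differ beyond counting error, and the other neighbours had separate intervals. Non-keratinocyte clusters of at least 50 cells ran from 153 to 540 CPM in that library. All classes but cells without a class lay within or under that range, so their order is not told apart from background. At 1 week the order was basal-like (1522 CPM), granular-like (689 CPM), bulge-like (82.0 CPM), sebaceous-like (76.5 CPM), upper follicle-like (56.8 CPM), matrix-like (50.5 CPM) and cells without a class (40.9 CPM). Intervals of neighbours overlapped from bulge-like cells downwards, and 14 suprabasal-like cells are left out. These classes from bulge-like cells downwards also lay under 309 CPM, the highest non-keratinocyte cluster at 1 week, and are not told apart from background. The basal-like class is not like for like at 1 week, since cluster 4 held 2145 of its 2285 control cells and cluster 40 held 34 of its 55 ablated cells.

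The share of keratinocytes with a Krt8 UMI, at 2000 UMIs a cell, went from 0.177% (0.120 to 0.251) to 35.5% (34.8 to 36.3) at 1 day. These shares rest on 17524 control and 16711 ablated cells, after 2268 and 2711 shallower cells were left out. Without thinning they were 0.303% and 41.9%. At 1 week the share went from 0.145% of 6911 cells to 15.4% of 3185 cells (0.351% and 23% without thinning). Krt18 was in 0.143% of control and 8.09% of ablated cells at 1 day, and in 0.029% and 6.19% at 1 week. Krt7 was at 0.679% and 0.772% at 1 day and 0.984% and 0.722% at 1 week, with overlapping intervals in both pairs. Krt19 was at 0.029% and 0.042%, and at 0.072% and 0.283%.

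Krt8 was spread unevenly among ablated keratinocytes. At 2000 UMIs the median cell had 0 Krt8 UMIs at both times, the 99th percentile had 12 at 1 day and 10 at 1 week, and the highest cell had 32 and 23. The 10% of cells with most Krt8 held 60.9% of its UMIs at 1 day and 90.1% at 1 week. At least 5 Krt8 UMIs were found in 9.98% of cells at 1 day and 4.33% at 1 week, and in none of the control cells.

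Krt8 and Krt18 were found in the same cells. At 1 day 6.84% (6.46 to 7.23) of ablated keratinocytes held both, against 0.006% of control cells, or 1143 cells against 1. At 1 week 4.58% (3.88 to 5.37) held both, against 0 of 6911 control cells, which allows a share of up to 0.0434%. Krt18 was in 19.2% of Krt8-positive and 1.94% of Krt8-negative ablated cells at 1 day, and in 29.7% and 1.89% at 1 week. Seen from Krt18, 84.5% of Krt18-positive cells at 1 day and 74.1% at 1 week also held Krt8. Immune cells held both in 3.51% (2.24 to 5.22) at 1 day, under the keratinocyte interval, and in 1.46% (0.177 to 5.17) at 1 week, overlapping it. The pooled 1-day value mixes unlike types. Krt18 was in 8.93% (2.96 to 19.6) of Krt8-positive Langerhans-like cells of cluster 10 and 15.6% (7.76 to 26.9) of Krt8-positive T cell-like cells of cluster 15. T cell-like cells alone are thus not shown to lie under the keratinocytes. Without thinning 10.2% and 9.45% of ablated keratinocytes held both.

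The pairing was also seen within some single clusters. In cluster 0 at 1 day Krt18 was in 24.8% (23.4 to 26.2) of Krt8-positive cells and 4.33% (3.25 to 5.63) of the others. In cluster 9 the shares were 28.7% and 4.72%, and in cluster 12 at 1 week 35.2% (29.7 to 41.1) and 1.60% (0.732 to 3.01). Intervals overlapped in 4 of the 10 keratinocyte clusters with such values at 1 day, which were clusters 4, 8 (suprabasal-like), 14 (sebaceous-like, 13.9% and 7.12%) and 17 (granular-like). They also overlapped in cluster 19 at 1 week (13.6% and 8.26%). T cell-like cells of the 1-day ablated library, used as background cells, also differed, at 15.6% (7.76 to 26.9) and 1.41% (0.171 to 5.00). Langerhans-like cells of cluster 10 differed too, at 8.93% (2.96 to 19.6) and 0.337% (0.0085 to 1.86). Fibroblast-like cells of cluster 16 overlapped, at 9.86% (4.06 to 19.3) and 4.23% (1.57 to 8.97). Pairing within a cluster is thus not particular to keratinocytes at 1 day.

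Krt7 went the other way. At 1 day it was in 0.320% (0.193 to 0.499) of Krt8-positive and 1.02% (0.840 to 1.23) of Krt8-negative ablated keratinocytes. Of 129 Krt7-positive cells 14.7% held Krt8, against 35.7% of the others. Krt7 was highest in upper follicle-like cells and at 0.785 CPM in cluster 0, which held most Krt8. No value within single clusters is given for this pair, so the part of class makeup was not tested. At 1 week 1 of 23 Krt7-positive cells held Krt8, too few to place. Krt7 and Krt18 were both found in 2 cells at 1 day and 1 cell at 1 week. Krt19 was found with Krt8 in 2 cells at each time, and with Krt18 or Krt7 in none. At 1 week the cells with both held 19 Krt19 UMIs after thinning, against 16 in all ablated keratinocytes without Krt8.

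The number of Krt8 UMIs per count of Krt18 UMIs differed between cell types of a library. It is used here to compare cell types and not as the relative amount of the proteins. In 1-day ablated keratinocytes 11.2 (10.9 to 11.6) Krt8 UMIs were counted for each Krt18 UMI, against 9.70 (7.85 to 12.1) in immune cells. Sebaceous-like cells stood at 3.81 (3.16 to 4.62), upper follicle-like cells at 5.58 (4.57 to 6.86), and suprabasal-like cells had 320 Krt8 and 16 Krt18 UMIs. The sebaceous-like and upper follicle-like values lie below the immune interval. In the 1-week ablated library keratinocytes stood at 5.70 (5.45 to 5.96) and granular-like cells at 6.45. Upper follicle-like cells were at 1.31 (1.08 to 1.59) and matrix-like cells at 1.12 (0.718 to 1.77), below the immune value of 3.38 (1.79 to 6.85). Other non-keratinocytes of that library went as low, with melanocyte-like cells at 0.2 (0.021 to 0.939) from 2 and 10 UMIs and smooth muscle-like cells at 1 from 2 and 2. Schwann-like (5.47) and endothelial-like cells (4.21) were higher. In control keratinocytes the 1-day ratio was 0.816 from 80 and 98 UMIs. Of these Krt8 and Krt18 UMIs sebaceous-like cells held 21 and 31, keratinocytes without a class 19 and 34, and basal-like cells 2 and 15. The 1-week control ratio was 4.92 (2.61 to 10.0) from 59 and 12 UMIs, which overlaps the ablated one.

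**Figure D3:**
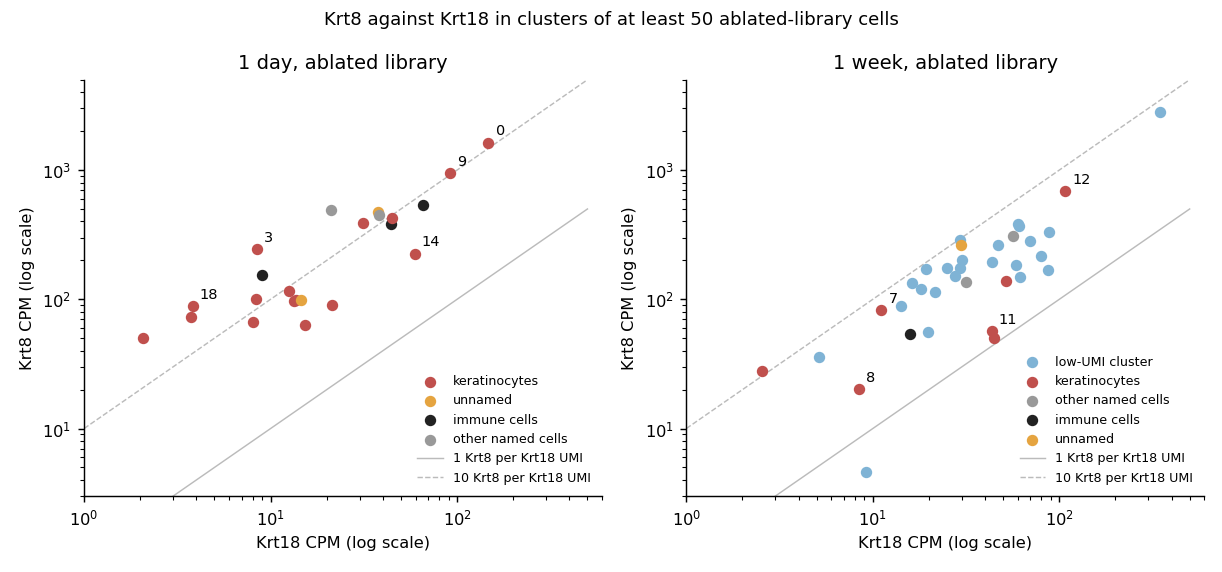
Krt8 against Krt18 level (CPM, both axes logarithmic) in clusters of at least 50 ablated-library cells at 1 day and 1 week, coloured by cell type, with lines at 1 and 10 Krt8 UMIs per Krt18 UMI. Clusters with 0 UMIs of either gene are not drawn, clusters 0 and 9 at 1 day stand at the upper right, and upper follicle-like cluster 11 at 1 week lies near the line of 1.

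Ablated keratinocytes were then grouped by their Krt8 UMIs of 2000 (0, 1 to 2, 3 to 5, and 6 or more), which at 1 day gave 10772, 2977, 1728 and 1234 cells. Krt18 went from 10.9 CPM in cells without Krt8 through 62.5 and 179 CPM to 303 CPM (282 to 326) in the highest group. Krt14, the basal type I keratin, went from 2910 to 7699 CPM, and Tslp, an epithelial cytokine, from 121 to 887 CPM. Krt10, a suprabasal keratin, went from 6250 to 2973 CPM, Krt79, an upper follicle keratin, from 929 to 74.6 CPM, and Flg, which encodes filaggrin of the granular layer, from 258 to 11.8 CPM. Trp63 went from 145 to 55.1 CPM and Krt7 from 5.66 to 0.81 CPM, the last from 122 and 2 UMIs. Median depth before thinning was 4006 UMIs in the lowest and 3625 in the highest group. These values compare cells within 1 library, so they also follow which clusters the cells come from.

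At 1 week the same groups held 2693, 280, 101 and 111 cells. Krt18 went from 11.3 to 743 CPM, Krt14 from 6878 to 14721 CPM and Tslp from 49.0 to 608 CPM. Cldn4, a tight junction claudin, went from 1493 to 4351 CPM, and Krt15, a basal and bulge keratin, from 4208 to 1414 CPM. Krt79 went from 2572 to 49.5 CPM and Flg from 218 CPM to 0 UMIs. Krt10 had 1592 CPM in the lowest and 2041 CPM in the highest group. The partners of these keratins did not follow them. Krt1, the partner of Krt10, went from 766 to 185 CPM, and Krt5, the partner of Krt14, from 4477 to 4113 CPM. Krt7 was at 4.6 CPM in cells without Krt8, and its 0 UMIs in the groups with 3 to 5 and 6 or more allow up to 18.3 and 16.6 CPM, so no difference was detectable at this depth. Depth moved with these groups, from a median of 7317 UMIs in the lowest to 12551 in the highest, and its part was not tested.

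**Figure D4:**
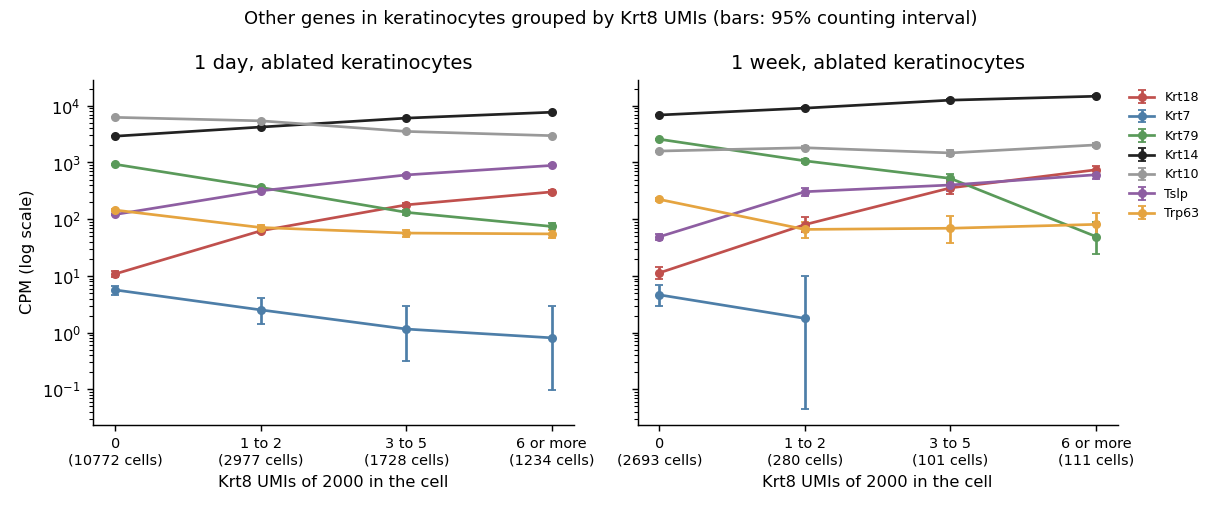
Level of 7 genes (CPM, logarithmic axis) in ablated keratinocytes grouped by their Krt8 UMIs among 2000, at 1 day and 1 week, with 95% counting intervals. Krt18, Krt14 and Tslp are higher and Krt79 and Trp63 lower in all groups with Krt8 than in cells without it, and groups with 0 UMIs of Krt7 are not drawn.

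Cells with and without a Trp63 UMI were set side by side. At 1 day 22.4% of 2749 ablated keratinocytes with a Trp63 UMI held Krt8, against 38.1% of those without. At 1 week the shares were 6.99% (5.34 to 8.97) of 815 cells and 18.4% of 2370 cells. The shares of cells with a Trp63 UMI lie within the immune interval at 1 day (20.2 to 26.8) and the Langerhans-like interval at 1 week (2.77 to 15.4). As shares they are not told apart from background. Trp63 UMIs were also counted in groups of cells with much Krt8. Ablated keratinocytes with 3 to 5 and 6 or more Krt8 UMIs of 2000 held 197 and 136 Trp63 UMIs at 1 day, and 14 and 18 at 1 week. The 1-day values are 57.0 and 55.1 CPM, under the 145 CPM of cells without Krt8. No Trp63 level of other cell types is given beside them, so they are not told apart from background. The control libraries had 0.202% and 0.151% at 1 day, then 0.133% and 0.158% at 1 week, with overlapping intervals. Absence of a UMI at this depth does not show absence of Trp63 RNA.

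Merkel cells are the skin cells known for Krt8 and Krt18, so their other markers were read in the same keratinocytes. The list held Atoh1, Isl1, Sox2, Krt20, Chga, Snap25, Cbln2, Piezo2, Insm1 and Rab3c. In 1-day ablated keratinocytes 6 of the 10 had a UMI, 43 UMIs in all or 0.502 CPM, against 36 UMIs or 0.342 CPM in the control. Atoh1, Isl1, Snap25 and Cbln2 were at 0 in both. In cluster 0, with 33277 Krt8 UMIs, the 10 markers had 2 UMIs together, with Krt20 at 0. At 1 week the list summed to 2.60 CPM in ablated and 0.200 CPM in control keratinocytes, 93 and 11 UMIs. Chga gave 56 of the 93, and Atoh1, Snap25, Cbln2 and Rab3c were at 0 in both. The sum was 2.65 CPM in keratinocytes with Krt8 and 2.58 CPM in those without, but from different markers. In cluster 12, which held most Krt8 at 1 week, the markers had 37 UMIs or 2.30 CPM, of which Chga gave 31. Piezo2 gave 27 of the 29 UMIs in cells with Krt8, where Chga was at 0, and Chga gave 56 of the 64 in cells without. Krt20 had 2 UMIs in each whole library.

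T and NK cell markers summed to 73.0 and 36.2 CPM in control and ablated keratinocytes at 1 day and 65.8 and 35.8 CPM at 1 week. Langerhans and myeloid markers summed to 114 and 143 CPM and to 257 and 201 CPM. All 10 and all 9 markers had UMIs in each of these 4 sets of cells. In ablated keratinocytes with a Krt8 UMI the T and NK sum was lower than in those without, at 22.8 against 47.7 CPM at 1 day and 22.7 against 41.5 CPM at 1 week. The Langerhans and myeloid sum was higher in them, at 146 against 141 CPM and 234 against 187 CPM. Control keratinocytes with a Krt8 UMI were further apart from those without, at 299 against 113 CPM at 1 day (60 cells with Krt8) and 669 against 255 CPM at 1 week (27 cells). The part of these cell types in the Krt8 values was not tested beyond that.

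Krt7 had its own place. It was highest in upper follicle-like keratinocytes at 1 day, where control cells had 17.0 CPM (14.4 to 19.9) and ablated cells 19.8 CPM (16.7 to 23.3), overlapping. Within that class cluster 18, led by Krt79, Rptn and Slc5a8, stood at 35.9 and 43.4 CPM (log2 ratio 0.27, interval -0.26 to 0.82). The larger cluster 5 of the class stood at 13.9 and 10.0 CPM (log2 ratio -0.47, interval -0.98 to 0.03). Cluster 4, keratinocytes without a class, stood at 8.97 and 6.18 CPM (log2 ratio -0.54, interval -1.09 to -0.01). At 1 week Krt7 was lower in the ablated library in both shared clusters rich in it. Upper follicle-like cells went from 12.3 to 6.16 CPM (log2 ratio -0.99, interval -1.76 to -0.25). Cluster 8, with Fst, Sostdc1 and Lrig1 among its leading genes, went from 20.9 to 7.49 CPM (log2 ratio -1.48, interval -1.97 to -1.01). These are the clusters behind the value of -1.29 over shared clusters.

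Krt19 was concentrated in bulge-like cells. They held 85 of the 91 Krt19 UMIs of 1-week ablated keratinocytes, at 22.0 CPM (17.6 to 27.2), against 4 UMIs or 1.27 CPM in control cells (log2 ratio 4.12, interval 2.71 to 6.03). Few cells carried them, so the counting interval does not cover the spread between cells. Over all 1-week ablated keratinocytes, cells with 1 to 2 Krt8 UMIs of 2000 held 19 thinned Krt19 UMIs and cells without Krt8 held 16. At 2000 UMIs 1.16% (0.503 to 2.28) of 688 ablated and 0.309% (0.037 to 1.11) of 647 control bulge-like cells had a Krt19 UMI, and these intervals overlap. At 1 day bulge-like cells held 11 control and 12 ablated UMIs, 1.16 and 2.10 CPM. Outside keratinocytes, control fibroblast-like cells at 1 week held 11 UMIs, or 14.5 CPM (7.22 to 25.9), more than any control keratinocyte cluster.

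Genes most like each member were found over cluster-by-library profiles of at least 50 cells, 43 at 1 day and 68 at 1 week, by Pearson's r of log2(CPM + 1). These profiles share libraries, depth and the free RNA of their library, so r is a description. Krt18 was the gene most like Krt8 of 9446 genes at 1 day (r = 0.93) and of 11882 at 1 week (r = 0.95). Elf3, an epithelial ETS factor, followed at 1 day (0.86), then Cldn7 (0.84), Ly6c1 (0.84) and Tslp (0.82). At 1 week Nppb (0.84), Klk6 (0.83), Gm49428 (0.83) and Elf3 (0.82) followed. For Krt18, Cldn7 (0.84) and Elf3 (0.83) came after Krt8 at 1 day, and Nppb (0.86) and Elf3 (0.82) at 1 week. Krt7 and Krt19 were far from Krt8, with r of 0.11 and 0.07 at 1 day and 0.02 and 0.12 at 1 week. Nearest to Krt7 were Lmo7 (0.71), Krt17 (0.68) and BC006965 (0.68) at 1 day and Prl8a9 (0.57), Prl2a1 (0.57) and Bex4 (0.51) at 1 week. Nearest to Krt19 were Scrg1 (0.78), Angptl7 (0.77) and Krtap17-1 (0.76) at 1 day, where Krt19 itself reached 3.07 CPM at most and missed the 20 CPM asked of other genes, and Wnt5b (0.62), Cacna1c (0.59) and Ror2 (0.58) at 1 week.

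Other keratins of the epidermis were compared with the members in all keratinocytes. In this and the gene lists that follow, the sides hold different cells, and no value within shared clusters is given. At 1 week the control sum held 2702 suprabasal-like, 2285 basal-like and 24 granular-like cells, where the ablated sum held 14, 55 and 859. Of 20 listed genes 17 reached 5 CPM at 1 day. At 2-fold 5 were higher and 3 lower (4.12% and 1.85% over all genes), with a median log2 ratio of 0.34 beside -0.04 for all genes. Krt4, a keratin of oral and oesophageal lining, had the highest ratio at 4.80, from 0.27 to 7.41 CPM. Krt6b (3.94) and Krt16 (1.82), known from wounded and proliferating epidermis, followed, and Krt2 (-2.34), Krt15 (-1.15) and Krt5 (-1.13) were lowest. At 1 week 7 of 18 were higher and 4 lower (7.12% and 3.32% over all genes), with a median of 0.53 beside 0.07. Krt6b went from 12 to 51912 UMIs, a log2 ratio of 12.70, Krt4 stood at 5.11 and Krt6a at 4.60. Krt2 (-4.72), Krt10 (-1.25) and Krt15 (-1.23) were lowest. Krt8 thus lay above all 17 of these keratins at 1 day and below Krt6b at 1 week.

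Genes of simple epithelia were mostly little altered at 1 day. Of 21 listed, 15 reached 5 CPM, 3 were higher and 0 lower (4.12% and 1.85% over all genes), with a median of 0.33 beside -0.04. The claudins Cldn7 (5.33, from 0.30 to 12.2 CPM) and Cldn4 (2.39) and the adhesion molecule Epcam (1.13) were higher, and Cldn1 (-0.01) and Tjp1 (0.14) were among the lowest. At 1 week 7 of 16 were higher and 0 lower (7.12% and 3.32% over all genes), with a median of 0.80 beside 0.07. Cldn7 (4.80), Lcn2 (4.50), an iron-binding protein of stressed epithelia, and Cldn3 (2.30) were highest, and Cdh1 (-0.31) and Cldn1 (-0.11) among the lowest. The calls include Epcam again, at 1.31.

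Of the listed genes for keratin attachment, 11 of 14 reached 5 CPM at both times. At each time 1 was lower and 0 higher, with medians of -0.15 and -0.28 beside -0.04 and 0.07 for all genes, of which 1.85% and 3.32% were lower. That gene was Dst, which encodes a plakin linking basal keratins to hemidesmosomes, at -1.28 and -1.56. The others stayed under 2-fold, from Trp53 (-0.47) to Vim (0.62) at 1 day and from Trp53 (-0.57) to Krtcap3 (0.38) at 1 week. Trp53 encodes the transcription factor p53 and is not an attachment gene, though the list as fixed held it. Pkp1 (-0.20), Pkp3 (0.09) and Krtcap3 (0.04) at 1 day, and Vim (-0.52), Ppl (0.01) and Pkp3 (0.16) at 1 week, complete the named genes of this list.

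Of 25 epithelial transcription factors 23 reached 5 CPM. At 1 day 3 were higher and 0 lower (4.12% and 1.85% over all genes), with a median of 0.16 beside -0.04. At 1 week 4 were higher and 1 lower (7.12% and 3.32% over all genes), with a median of 0.07, as for all genes. Elf3 was highest both times, from 4.12 to 73.3 CPM (4.15) and from 6.97 to 169 CPM (4.60). Grhl3 (1.39) and the ETS factor Ehf (1.19) followed at 1 day, and Ehf (1.49) and Tead4 (1.28) at 1 week. Gata3 was the lowest both times (-0.57 and -1.16), followed by Sox4 (-0.32) and Tfap2b (-0.19) at 1 day and by Fosl1 and Ovol2 (-0.44) at 1 week. Fosl1 went from 799 to 401 CPM, just inside the 2-fold limit.

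**Figure D5:**
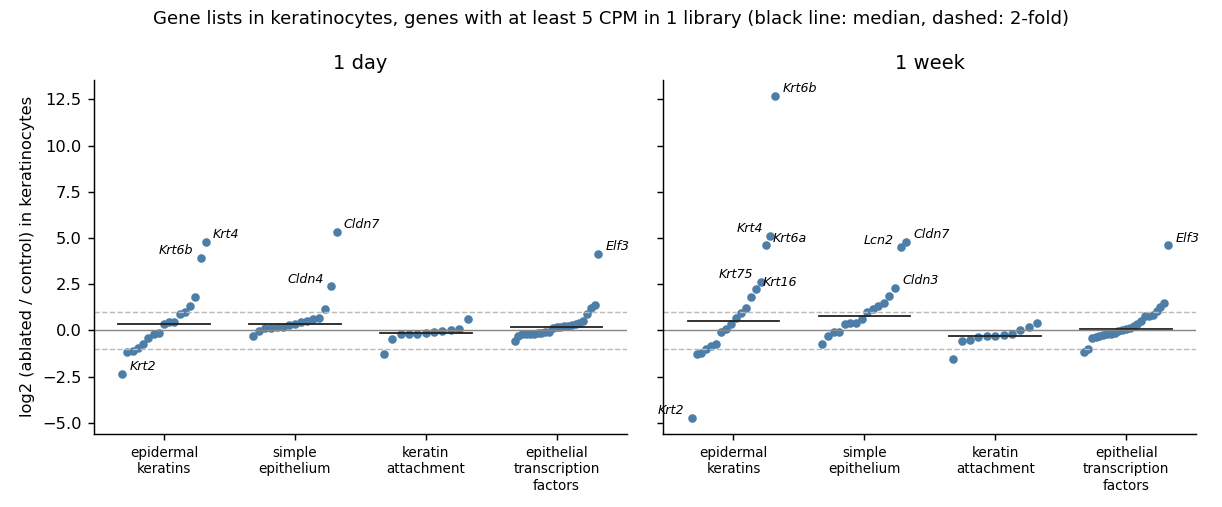
Log2 ratio of ablated over control in keratinocytes for the listed genes with at least 5 CPM in 1 library, at 1 day and 1 week. Each point is a gene, black bars mark the list medians (0.34, 0.33, -0.15 and 0.16 at 1 day), and dashed lines mark 2-fold.

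Both 1-day libraries carried hashtag antibody counts whose meaning the labels do not give. Among ablated keratinocytes led by 1 tag at 2-fold over the next, Krt8 was at 485 CPM (hashtag1), 584 CPM (hashtag2) and 516 CPM (hashtag3). In the control library the same tags gave 0.960, 0.340 and 0.737 CPM. Each of these 3 tags stood above all 3 in the control. No tag was 2-fold ahead in 11662 of the 19422 ablated and 7403 of the 19792 control keratinocytes, which these values leave out. The tags are not used as replicates.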

How the data were processed

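Values deposited by the authors are UMI counts for each gene in each barcode, as whole numbers. The submitters' processing notes name Cell Ranger 5.0.1, Seurat and mm10. Barcodes under 500 UMIs or 300 genes, or above 15% mitochondrial UMIs, were dropped, and the top Scrublet scores were removed at 0.8% per 1000 barcodes (14.7% to 26.8% a library). Each time point's pair of libraries was clustered jointly with scanpy 1.11.5 (2000 variable genes, 30 components, 15 neighbours, leidenalg 0.10.2 at resolution 1). Clusters with a median under 2000 UMIs stayed apart. The limits for naming clusters were chosen with these data in view. UMIs were summed per library and class. Intervals are exact Poisson, exact conditional (ratios) and exact binomial (shares) at 95%, and a count of 0 was set to 3 UMIs. TMM factors came from edgeR 4.0.16. Named genes are the members, the 3 highest and 3 lowest log2 ratios of each list, and the 5 (Krt8) or 3 genes most like a member. A gene that this rule names is not reported here. Leading genes of clusters and genes set beside Krt8 groups were chosen after their values were seen. Members and lists were chosen with earlier results of these data known. The ratios with their intervals and the thinning were tested on simulated counts, and the filters, doublet removal, clustering and naming were not.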

Additional observations from a re-analysis of the deposited data

Results flagged for a closer look

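Krt7 in keratinocytes had a log2 ratio lower by 0.50 at 1 week than at 1 day (-0.50), with the sign positive at 1 day and negative at 1 week. The difference was not tested, and the time points differ in kit.

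Cells outside the comparisons also held the members. In unnamed clusters of the 1-day ablated library Krt8 was at 397 CPM and Krt18 at 32.9 CPM, against 6.97 and 0.46 CPM in the control. The sides are not like for like, since 649 of the 664 control cells lay in cluster 12 and 2356 of the ablated ones in cluster 2. Within cluster 12 Krt8 was at 7.09 CPM in control and 98.1 CPM in ablated cells, from 15 and 161 UMIs. In low-UMI clusters of the 1-week ablated library Krt8 was at 260.4 CPM and Krt18 at 54.0 CPM, against 0.95 CPM and 0 UMIs in the control. These too are different clusters: control cells lay mainly in clusters 0, 2 and 5 (3859, 2355 and 1642 cells), which held 65, 9 and 38 ablated cells. Ablated cells lay mainly in clusters 1, 3 and 6 (2776, 2007 and 1695 cells), which held 19, 0 and 18 control cells. Of the 1507 low-UMI cells deep enough to thin, 29.3% had a Krt8 UMI. The antibody feature hashtag2 had a median count of 137 per cell in the 1-day ablated library and 110 in the control.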

How the results depend on the processing

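For the ratios and shares of the members, 61 values under the first set of alternative settings moved no further than their error and 19 did. For the counts of listed genes 23 stayed within 1.5-fold and 1 did not (keratin attachment at 1 week, 1 gene higher at 1 CPM or more). Of the settings added after the data were seen 11 did not, 12 did and 1 changed sign. Signs turned for Krt19 at 1 day, to -0.25 when CPM was averaged over cells (within its counting error), and for Krt7 at 1 week, to 0.041 without the cluster that holds most Krt8 UMIs. That setting gave 8.31 for Krt8 and 4.48 for Krt18 at 1 day, 6.75 and 7.18 at 1 week, and 0.47 for Krt7 at 1 day. Clusters with at least 50 cells in both libraries gave 8.26, 4.89 and 0.93 (Krt8, Krt18, Krt7) at 1 day and 3.96, 4.94 and -1.29 at 1 week. Averaging CPM over cells gave 9.21 and 6.13 for Krt8 and Krt18 at 1 day. Counting low-UMI and unnamed clusters as keratinocytes gave -0.025 for Krt7 at 1 week, and all cells gave 2.36 for Krt19.

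Share differences in percentage points, main 35.4 and 15.3 for Krt8 and 6.83 and 4.58 for both genes (1 day, 1 week), were 41.6, 22.6, 10.2 and 9.43 without thinning and 25.9, 10.4, 3.39 and 2.80 at 1000 UMIs. With at least 2 UMIs they were 23.7, 8.97, 2.13 and 1.88. Keeping doublets gave 37.1 and 6.38 at 1 day. All cells gave 18.9 for Krt8 at 1 week and 6.45 for both genes at 1 day.

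No paired analysis was possible because each group is 1 library. Shallow cells limit the shares, and control levels rest on 12 to 98 UMIs for Krt8 and Krt18.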

Other observations

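A cluster of 96 cells of the 1-week ablated library, with a median of 1752.5 UMIs and no control cells, was led by the prolactin family genes Prl2c3 and Prl2c2 and by Krt7. It held 3 members at high levels, with Krt8 at 2829 CPM, Krt18 at 345 CPM and Krt7 at 509 CPM, and no Krt19 UMI. Its 87 Krt7 UMIs exceed the 61 of all low-UMI control cells. It is the cluster in which Prl8a9 and Prl2a1, the genes most like Krt7 at 1 week, are among the leading genes. The cluster was singled out after its values were seen.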
